A study of Mus musculus with 4 samples.

Results

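A set of 10 transcripts of the p53 pathway was followed through the cells of mouse kidney glomeruli, the capillary tufts that filter blood: Trp53, which encodes p53, and 9 genes that p53 is known to switch on (Mdm2, Ccng1, Bax, Bbc3, Aen, Zmat3, Phlda3, Trp53inp1 and Eda2r). The members were taken by gene symbol, and each of the 10 symbols matched 1 of the 52636 gene IDs measured. The series holds droplet-based 3' single-cell libraries from 2 young and 2 aged glomerular preparations of untreated mice. The labels name no allele, strain, sex or age in months, and do not say how many animals stand behind a library. The p-values therefore measure the spread between these libraries, which may in part be technical.

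p53 is a transcription factor that is held at a low level by Mdm2, a ubiquitin ligase that is itself a p53 target. Stress and DNA damage release p53 from Mdm2, after which it binds response elements and raises genes that halt the cell cycle, repair DNA or trigger apoptosis. Its activity is set mainly through protein stability and modification, so the Trp53 transcript is not a measure of it. In the kidney, p53 targets are best known from injured tubules. The glomerular classes here were podocytes (which cover the capillaries), endothelial cells (the lining of those capillaries), mesangial cells (contractile support cells between the capillary loops) and parietal epithelial cells (the outer wall of Bowman's capsule).

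The deposited matrices held 33323 barcodes and 124600182 unique molecular identifiers (UMIs), between 18457791 and 42046542 a library. Of 28000 kept cells, 3993 were named podocyte-like, 14106 endothelial-like, 1769 mesangial-like and 292 parietal epithelial-like from marker genes. Summed podocyte markers reached 25034 to 26690 counts per 1000000 UMIs of the sum (unscaled CPM) in the podocyte sums and 839.7 to 1381 in the endothelial sums, so each sum also carried RNA of other cells. In the second young library 53.2% of kept cells were left out with mixed clusters, which had markers of several classes in their sum or in over 50% of their cells. The largest held 2256 cells of that library. There 53.4% of the cells carried markers of another class, while the sum of the rest pointed to podocytes alone. That library kept 592 podocytes, against 1511 with clusters made at resolution 2. The mesangial cells of the young and the aged libraries came largely from different clusters. Pairs of libraries shared 9 to 31 cell barcodes.

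Promoter sequence is shown first, because the members other than Trp53 are defined by their control through p53. RefSeq promoter windows of 300 bases (250 before the transcription start, GRCm38.p6) were found for 8 of the 10 members, and for Trp53inp1 and Zmat3 none was matched. The p53 decamer, the 10-base unit of the p53 response element, reads the same on both strands. It occurred in 8.36% of all 32851 windows. Of the 8 members, which had 11 windows in all, 5 held it in any window, Trp53 among them. The former share counts windows and the latter genes, so they are not alike in unit. Each member window with a match held 1 decamer only. A pair of decamers 0 to 13 bases apart occurred in 0.0731% of all windows and in no member window. A match describes the letters only, and response elements of known targets often lie outside such windows. The stretches around the matches are given 5′ to 3′ along the gene, with the decamer in capitals.
Mdm2, chr10:117710910-117710969, minus strand, decamer starting 186 bases before the start: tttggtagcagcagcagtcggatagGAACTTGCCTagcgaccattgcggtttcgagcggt
Ccng1, chr11:40755437-40755496, minus strand, 185 bases before the start: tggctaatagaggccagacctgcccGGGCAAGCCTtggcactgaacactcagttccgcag
Bax, chr7:45467065-45467124, minus strand, 201 bases before the start: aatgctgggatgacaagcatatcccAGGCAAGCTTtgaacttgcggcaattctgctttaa
Aen, chr7:78895927-78895956, plus strand, 121 bases before one RefSeq start and from base 11 after another: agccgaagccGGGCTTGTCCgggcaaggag
Trp53, chr11:69580259-69580318, plus strand, 75 bases before the start: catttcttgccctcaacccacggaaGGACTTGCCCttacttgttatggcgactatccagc
The Aen decamer lies inside the gene as the annotation of the counts bounds it. The windows of Phlda3, Eda2r and Bbc3 held no decamer.

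Levels in the tests are given as CPM, counts per 1000000 of the summed UMIs of a class in a library, scaled between libraries by the TMM method; values called unscaled CPM lack that scaling. Values run in the order young 1 and young 2, then aged 1 and aged 2, and ± marks the SD with n = 2 libraries a group. Each difference is the log2 change from young to aged with its standard error (SE), tested with edgeR's quasi-likelihood test. A gene was called at a Benjamini-Hochberg adjusted p under 0.05 over all genes of the class.

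In endothelial cells 5 of the 10 members rose in the aged libraries: Eda2r, Ccng1, Phlda3, Bax and Aen. All 10 could be tested there, and Bbc3, Zmat3, Mdm2, Trp53inp1 and Trp53 did not pass. Of all 13148 genes tested, 4.04% rose. The log2 difference was above 0 for 10 of 10 members, with a median of 0.58 against -0.006 over all genes. For 8 of 10 members the lower of the aged libraries still exceeded the higher of the young ones, against 24.5% of all genes.

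Bax encodes the pore-forming protein that opens the outer mitochondrial membrane in apoptosis (ENSMUSG00000003873, chr7:45461697-45466898, minus strand, GRCm38). It stood at 193.7 and 175.5 CPM in the young and at 285.7 and 276.4 CPM in the aged endothelial sums. The aged libraries thus lay close together and well above the young ones. The mean went from 185 ± 12.8 to 281 ± 6.55 CPM, a log2 difference of 0.61 (SE 0.15, edgeR adjusted p 0.0145), or 1.52-fold. The predicted gene Gm45808 overlaps Bax on the same strand.

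Phlda3, a membrane-binding protein that blocks Akt, measured 88.3 and 69.46 CPM in the young and 129.8 and 142.5 CPM in the aged endothelial sums (ENSMUSG00000041801, chr1:135766119-135769136, plus strand). The groups did not overlap, and the log2 difference was 0.78 (SE 0.15, edgeR adjusted p 0.00237), or 1.72-fold. Ccng1, cyclin G1, which guides a phosphatase to Mdm2, measured 15.03 and 18.88 CPM in the young and 27.78 and 31 CPM in the aged sums (ENSMUSG00000020326, chr11:40748552-40755311, minus strand). Its log2 difference was 0.81 (SE 0.17, edgeR adjusted p 0.00638), or 1.75-fold, again without overlap.

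Eda2r, the receptor for the A2 form of ectodysplasin, had the largest difference of the members and the smallest counts (ENSMUSG00000034457, chrX:97333840-97377216, minus strand). Its sums held 14 and 6 UMIs in the young and 133 and 176 UMIs in the aged endothelial cells. That is 2.192 and 1.399 CPM against 8.634 and 11.32 CPM, a log2 difference of 2.41 (SE 0.32, edgeR adjusted p 7.98e-05), or 5.33-fold. Both aged libraries stood far above both young ones. Over all 4 libraries Eda2r stood at 5.7 ± 4.56 unscaled CPM in endothelial cells, 5.04 ± 6.01 in parietal epithelial cells and 3.97 ± 4.67 in smooth muscle and renin cells (SD, n = 4 each). These values did not differ beyond their spread, but the SD spans young and aged libraries and so includes the difference with age. The classes were not compared within an age group. The parietal value rests on 9 UMIs in all and that of the smooth muscle and renin cells on 3. No podocyte of any library held a UMI of it (a floor of 3 counts is 0.389 unscaled CPM in the podocytes of young 1).

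Aen, an exonuclease that helps to fragment DNA in apoptosis, measured 13.93 and 18.65 CPM in the young and 26.23 and 23.28 CPM in the aged sums (ENSMUSG00000030609, chr7:78895854-78911209, plus strand). Its log2 difference of 0.62 (SE 0.18) passed the threshold narrowly (edgeR adjusted p 0.0471, and 0.0186 to 0.414 under the alternatives).

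Of the members that did not pass in endothelial cells, Bbc3 encodes Puma, a BH3-only protein that activates Bax (ENSMUSG00000002083, chr7:16308393-16318205, plus strand). It measured 22.86 and 18.65 CPM against 29.6 and 25.6 CPM, with a log2 difference of 0.40 (SE 0.17, edgeR adjusted p 0.202). Zmat3, a zinc-finger protein that binds RNA, measured 10.49 and 13.05 CPM in the young and 15.06 and 18.91 CPM in the aged sums (log2 0.55, SE 0.20, adjusted p 0.135). Mdm2 measured 114.4 and 110.7 against 126.4 and 145 CPM (log2 0.27, SE 0.14, adjusted p 0.315), and neither gene overlapped between the groups. Trp53inp1, a nuclear cofactor of p53 and a regulator of autophagy, had a log2 difference of 0.44 (SE 0.24, adjusted p 0.351) with overlap. Trp53 itself stood at 107.9 and 99.77 CPM in the young and 118.9 and 103.4 CPM in the aged sums, with overlap and a log2 difference of 0.10 (SE 0.14, adjusted p 0.781).

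The endothelial calls rest on both young libraries. Without young 1, or without young 2, edgeR called no gene of the whole endothelial table (1875 and 1574 genes had an unadjusted p under 0.05), while the log2 difference of Bax was 0.69 and 0.54 and that of Eda2r 2.83 and 2.18. None was called either when the filter on low counts was dropped (2267 genes had an unadjusted p under 0.05). Bax was also not called without aged 1 (adjusted p 0.121) or aged 2 (adjusted p 0.0602), whereas Eda2r, Phlda3 and Ccng1 were called in both. Macrophage markers summed to 2.359 and 6.053 unscaled CPM in young and 16.87 and 18.82 in aged endothelial sums, with C1qc at 0 in both young sums and no marker of the 7 at 0 in the aged ones. Of 12 marker lists, 7 did not overlap between the young and aged endothelial sums. Mesangial markers went from 45.14 and 65.58 to 108.1 and 118.9 unscaled CPM, with none of the 8 at 0 in any sum. Parietal epithelial markers lay at 369 to 383 in young and 485.8 to 703.2 in aged sums, with Cldn1, Pax8, Pax2, Dkk3 and Cdh6 each at 0 in at least 1 sum. Erythroid markers were lower, at 32.54 to 33.03 and 6.888 to 15.88, and so were the podocyte, B cell and endothelial lists. Genes known to respond to tissue dissociation also moved: 2 of 18 rose, 11 had an unadjusted p under 0.05, DESeq2 called 6, and their median log2 difference was 0.35 against -0.006 over all genes. The part of these lists in the result was not tested.

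**Figure D1:**
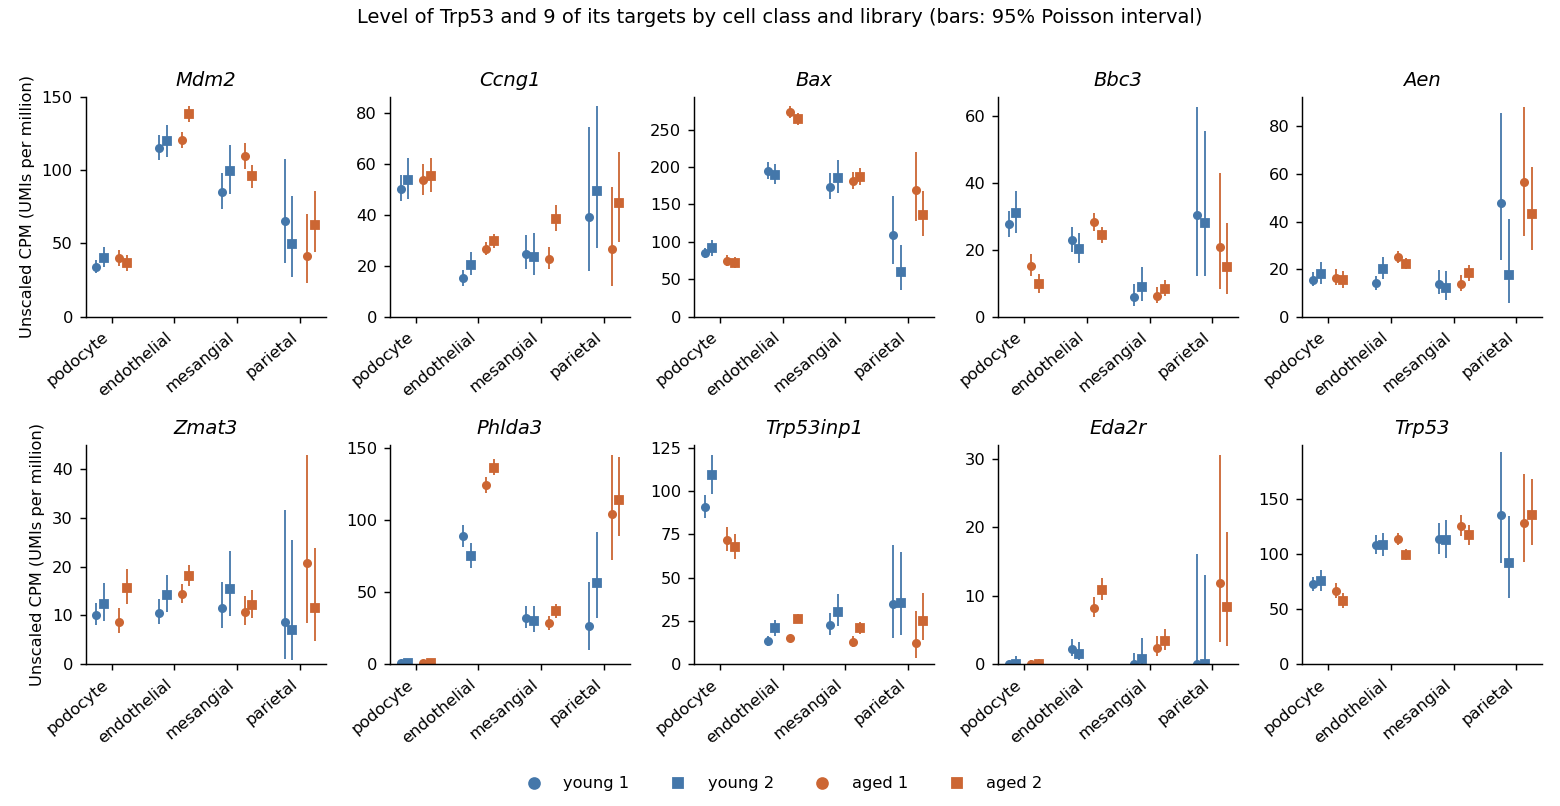
Unscaled CPM (linear axis from 0) of the 10 members in the summed podocytes, endothelial, mesangial and parietal epithelial cells of each library. Points are libraries (blue young, orange aged) with 95% Poisson intervals that cover counting error only. In endothelial cells the aged points of Bax, Phlda3, Ccng1 and Eda2r lie above the young ones, and in podocytes those of Bbc3 and Trp53inp1 lie below.

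Endothelial cells fell into several clusters, and the most numerous, led by Sele, Selp and Lrg1, held 339 and 186 young against 2307 and 1195 aged cells. To see whether the members differed within clusters, each of the 6 endothelial clusters with at least 50 cells in every library was fitted on its own, a step added after the data were seen. Bax was called in 4 of the 6. After TMM scaling it was higher in both aged libraries than in both young ones in 6 of 6 clusters, and without that scaling in 5, since the groups overlapped in the cluster led by Esm1 and Igfbp3. The same held after scaling for 20.5% to 23.3% of all genes in each cluster (23.3%, 21.1%, 20.5%, 22.7%, 22% and 22.8%). In the cluster led by Rflna and Ier5l, which had similar cell numbers in 3 of the libraries (1062, 512, 1152 and 1138 cells), Bax measured 197.7 and 174.4 against 319.7 and 287.4 CPM. The log2 difference in that cluster was 0.70 (SE 0.17, edgeR adjusted p 0.0222), where 1.68% of genes rose.

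Phlda3 was higher without overlap in 6 of 6 clusters after the scaling, and in 5 without it. It rose in the Sele cluster, as 2.46% of genes did there (log2 1.25, SE 0.22, adjusted p 0.00032), and in the Rflna cluster (log2 1.26, SE 0.18, adjusted p 0.000192). In the Esm1 cluster it measured 71.17 and 73.26 CPM in the young and 73.31 and 75.36 CPM in the aged libraries, whereas unscaled it stood lower in the aged ones (70.8 and 76.3 against 69.27 and 69.7). No member was called in that Esm1 cluster, where none of the 8 tested had an unadjusted p under 0.05 and 0.638% of genes rose.

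Ccng1 was higher without overlap in 3 of 6 clusters after the scaling and was called in 1. Its log2 difference ran from 0.03 in the Esm1 cluster to 2.18 in the cluster led by Meg3 and Rian, and in the Sele cluster its groups overlapped. In the Meg3 cluster, where 1.79% of genes rose, Ccng1 measured 8.471 and 5.587 CPM in young and 33.92 and 33.84 CPM in aged sums. These values rest on 5 and 2 UMIs in young and 55 and 74 in aged sums. Eda2r held 1 and 0 against 20 and 18 UMIs (1.567 and 0 against 18.56 and 15.11 CPM) in the cluster led by Tspan8 and Thbs2, where 3.01% of genes rose. Both passed the count filter there through the aged sums alone, so the direction of their edgeR calls was set by the filter. In the Sele cluster Eda2r rose from 4.226 and 1.581 to 10.73 and 13.77 CPM, or 3.82-fold (edgeR adjusted p 0.0447). Its sums there held 4 and 1 UMIs in young and 70 and 67 in aged libraries, with 1 young library below the filter's level. Bbc3, not called over all endothelial cells, rose in the cluster led by Cnmd and Gp1bb, where 1.44% of genes rose, from 12.62 and 14.29 to 35.8 and 27.76 CPM (log2 1.23, SE 0.32, adjusted p 0.0444). Aen was called in none of the 6 clusters and was lower in both aged libraries in the Tspan8 cluster. Differences between clusters were not tested.

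**Figure D2:**
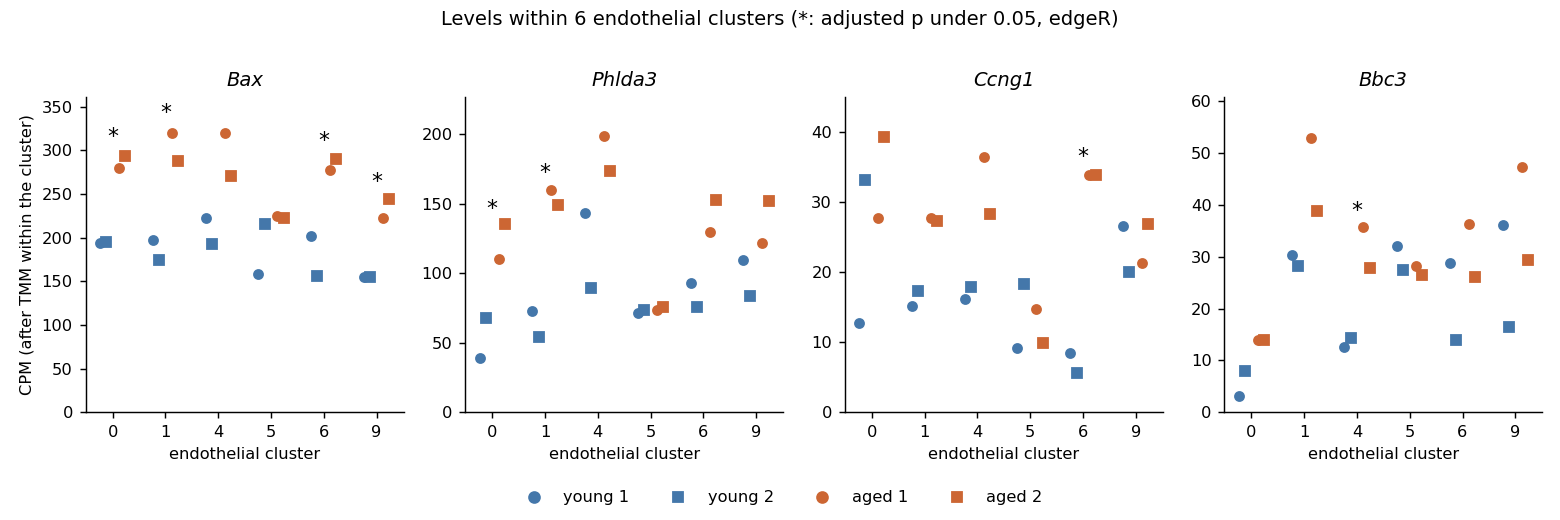
CPM (linear axis from 0) of Bax, Phlda3, Ccng1 and Bbc3 in each of 6 endothelial clusters, 1 point a library (blue young, orange aged), with a star where edgeR called the difference within that cluster. Bax and Phlda3 are higher in both aged libraries in all 6 clusters after TMM scaling, by least in cluster 5, which is the one led by Esm1 and in which this did not hold for the unscaled values.

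In podocytes the pattern was different. Of the 8 members that passed the count filter, 1 fell (Bbc3) and none rose, where 1.75% of all 10877 genes tested fell. Both aged libraries lay below both young ones for 4 of the 8 (Bbc3, Trp53inp1, Bax and Trp53), against 22.5% of all genes. Phlda3 held 3 to 7 UMIs a library and Eda2r none, so neither was tested.

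Bbc3 stood at 27.82 and 29.71 CPM in the young and 15.41 and 10.14 CPM in the aged podocytes. The mean went from 28.8 ± 1.34 to 12.8 ± 3.73 CPM, a log2 difference of -1.15 (SE 0.20, edgeR adjusted p 0.000744), or 0.451-fold. The call held without any 1 of the libraries, with log2 differences from -1.50 to -0.89. It was lost when predicted doublets were kept (log2 -1.18, adjusted p 0.0574) or when mixed clusters, mostly of young 2, were kept (log2 -1.18, adjusted p 0.171).

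Bbc3 was unevenly spread over the podocytes. In the cluster led by Gas1 and Tdrd5, which held most podocytes of each library, it measured 37.11 and 37.87 unscaled CPM in young, but 17.19 and 11.36 in aged libraries. In the cluster led by Clic3 and Cdkn1c it was low throughout, at 5.967 and 3.079 unscaled CPM in young, and 6.213 and 1.27 in aged libraries. The Gas1 cluster gave 1036 of 1757 and 429 of 592 podocytes in the young and 708 of 989 and 477 of 655 in the aged libraries.

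Trp53inp1 was lower in both aged podocyte sums (72.39 and 70.53 CPM) than in both young ones (91.43 and 105 CPM), with a log2 difference of -0.45 (SE 0.14) that missed the threshold (edgeR adjusted p 0.055, and 0.0156 to 0.624 under the alternatives). Bax measured 85.16 and 87.67 CPM against 75.26 and 74.96 CPM (log2 -0.20, SE 0.13, adjusted p 0.506). Mdm2 (34.35, 38.54, 40.14 and 38.01 CPM) and Aen (15.67, 17.06, 16.49 and 15.84 CPM) overlapped between the groups, as did Zmat3. Ccng1 had a log2 difference of 0.12 (SE 0.14) and Trp53 one of -0.20 (SE 0.14), neither called. Smooth muscle and renin markers summed to 17.9 and 19.61 unscaled CPM in young and to 47.1 and 68.7 in aged podocyte sums. They were 1 of 6 marker lists, of 12, that did not overlap there, 2 higher and 4 lower in the aged sums, and their part was not tested.

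The difference with age was itself compared between classes, with the library as a block. Of the 8 members tested in both classes, 3 differed between endothelial cells and podocytes, where 4.46% of all 13031 genes did. Bbc3 differed by 1.56 on the log2 scale (SE 0.22, edgeR adjusted p 0.000497), with 0.40 in endothelial cells and -1.15 in podocytes. Bax differed by 0.82 (SE 0.12, adjusted p 0.000871) and Ccng1 by 0.72 (SE 0.17, adjusted p 0.0253), each with the higher value in endothelial cells. Trp53inp1 differed by 0.89 (SE 0.24) but was not called (adjusted p 0.0516), and neither was Aen (adjusted p 0.0962). None of the 3 calls held when clusters were made at resolution 2, when doublets or mixed cells were kept or when cells were named one by one, settings under which edgeR called no gene at all for this pair (1358 to 1712 genes had an unadjusted p under 0.05). The differences were close in size under those settings, at 0.80 to 0.88 for Bax.

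**Figure D3:**
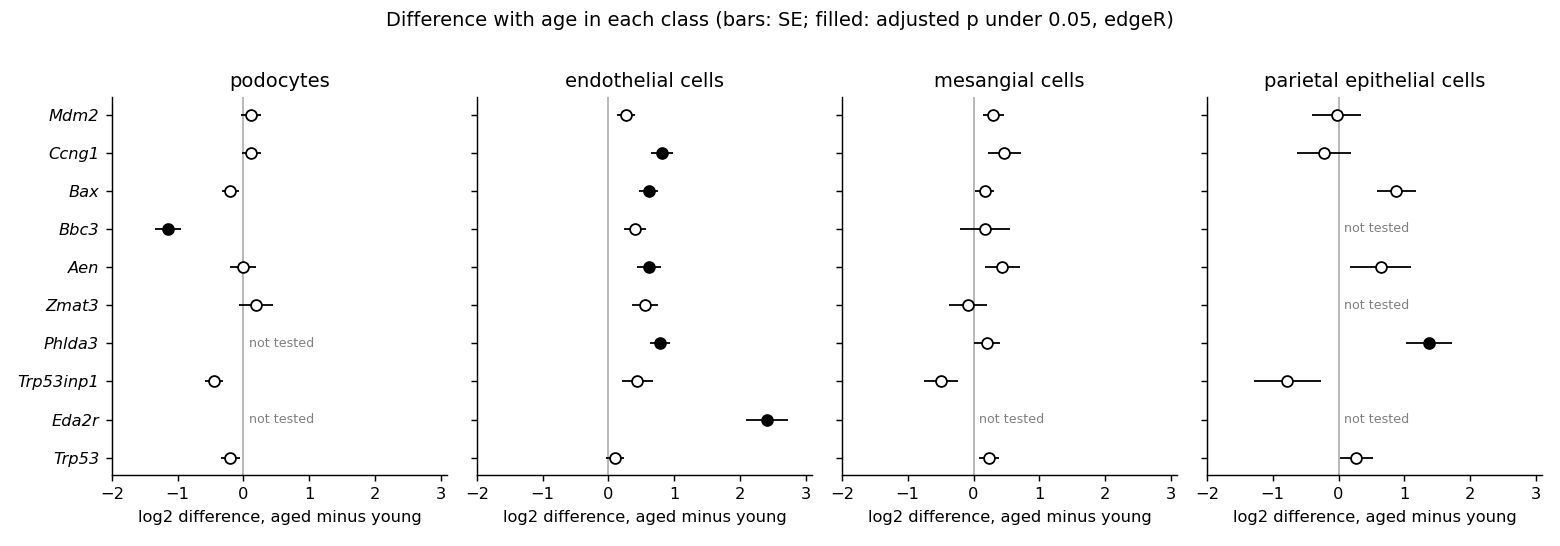
Log2 difference from young to aged for each member in the 4 glomerular classes, with bars of 1 SE and filled points where edgeR called the gene over all genes of the class. After TMM scaling the 10 endothelial points lie above 0, between 0.10 for Trp53 and 2.41 for Eda2r, and the podocyte point of Bbc3 lies at -1.15.

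In mesangial cells no member was called by edgeR among the 9 that passed the filter, where 8.43% of all 11034 genes were. None had an unadjusted p under 0.05, and DESeq2 called none. For 5 of the 9 (Trp53, Mdm2, Ccng1, Bax and Aen) the lower aged value exceeded the higher young one, against 26.6% of all genes. Without TMM scaling this held for 2 of the 9, Trp53 and Aen. Bax measured 168.1 and 176.4 CPM in the young and 195.3 and 192.5 CPM in the aged sums (log2 0.17, SE 0.14), and Mdm2 82.57 and 94.25 against 118.4 and 98.74 CPM (log2 0.30, SE 0.16). Trp53inp1 went the other way, from 21.82 and 28.66 to 13.67 and 21.28 CPM, a log2 difference of -0.49 (SE 0.26, adjusted p 0.283).

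Against endothelial cells, the mesangial difference of Trp53inp1 was lower by 0.95 on the log2 scale (edgeR adjusted p 0.0365), the only call among 9 members for that pair, where 4.05% of genes were called. It was not called without young 1, young 2 or aged 2. Between podocytes and mesangial cells edgeR called none of the 8 members, where 3.92% of genes were called. Eda2r missed the mesangial filter, with 0 and 1 UMIs in young and 12 and 20 in aged sums, a ratio of 10.8 with a counting interval of 1.81 to 441.

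Aged mesangial cells included cells with a UMI of Cdkn2a, a gene of which 1 product, Arf, binds Mdm2 and so frees p53. UMIs were counted per gene, so they do not show which product a transcript encodes. Cells with such a UMI made up 12.1% and 17.4% of the aged mesangial cells. They were deeper than the rest, with medians of 8554 and 16085 UMIs against 4086 and 6141. Levels are therefore given as unscaled CPM, with 95% Poisson intervals for counting error only. In aged 1, Mdm2 stood at 118.1 (98.5 to 140) in cells with a Cdkn2a UMI and at 107.6 (97.6 to 118) in the others. In aged 2 these values were 104 (89.3 to 120) and 92.57 (83.7 to 102), so the intervals overlapped in both libraries. Bax was as close, at 187.3 and 179.5 in aged 1 and 183.5 and 188.1 in aged 2. Trp53inp1 was higher in the Cdkn2a cells of aged 2 (31.94, interval 24.1 to 41.6, against 16.16, interval 12.6 to 20.4) but not in those of aged 1 (11.07 against 13.13).

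In parietal epithelial cells Phlda3 rose, the only call among the 7 members that passed the filter, where 2.58% of all 5200 genes rose. It measured 28.76 and 60.47 CPM in the young and 112.9 and 126.8 CPM in the aged sums, from 6, 16, 35 and 69 UMIs, with young 1 below the level of the count filter. The log2 difference was 1.38 (SE 0.35, edgeR adjusted p 0.025), or 2.6-fold. The call was lost without young 1 (log2 1.02, adjusted p 0.12) and with DESeq2 (adjusted p 0.338).

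Bax also stood higher without overlap in the aged parietal sums, as did 24.3% of all genes and 2 of the 7 members, at 183.9 and 150.7 against 119.8 and 64.25 CPM, but was not called (log2 0.88, SE 0.29, edgeR adjusted p 0.0875). Smooth muscle and renin markers summed to 1813 and 2221 unscaled CPM in the young parietal sums and to 4657 and 6908 in the aged ones, and podocyte markers to 4981 to 5599 and 2141 to 2165. Smooth muscle and renin cells themselves held 51.75 to 136.7 unscaled CPM of Phlda3. The part of such cells in the parietal result was not tested.

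Several members had different homes among the cell classes, ordered here by the mean unscaled CPM over the libraries with at least 20 cells of a class. An SD over young and aged libraries includes any difference with age. Mdm2 stood highest in endothelial cells (124 ± 10.3, SD, n = 4) and mesangial cells (97.5 ± 10.1, n = 4), and in podocytes it stood at 37.7 ± 2.88 (n = 4). Bax stood highest in macrophages (316.7 and 320.2 in the 2 aged libraries, the young ones having under 20 such cells) and in monocytes and dendritic cells (300.5 ± 81.7, n = 4, from 227 to 383.1), which did not differ beyond their spread, and lowest in podocytes (80.7 ± 8.9, n = 4). Trp53inp1 was the reverse, highest in podocytes (85 ± 19.1, n = 4) and at 18.7 ± 5.9 (n = 4) in endothelial cells. T and NK cells held 69.8 ± 33.8 of it (n = 4, from 35 UMIs), which did not differ from podocytes beyond the spread.

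Phlda3 reached 106 ± 28.8 (n = 4) in endothelial cells, 105 ± 37.5 (n = 4) in smooth muscle and renin cells and 0.876 ± 0.192 (n = 4) in podocytes. The endothelial and the smooth muscle and renin values did not differ beyond their spread, which in endothelial cells includes the rise with age. Ccng1 was highest in tubule cells (108 ± 3.8, n = 3), a class with under 20 cells in young 1, and next in podocytes (53.3 ± 2.08, n = 4). Bbc3 stood at 43.9 ± 4.3 (n = 2, both aged) in macrophages and 7.22 ± 1.49 (n = 4) in mesangial cells. Trp53 varied less between the glomerular classes, from 67.9 ± 7.83 in podocytes to 123 ± 20.9 in parietal epithelial cells (n = 4 each). Zmat3 ran from 11.7 ± 3.01 in podocytes to 14.3 ± 3.08 in endothelial cells (n = 4 each), so its glomerular values did not differ beyond their spread. Trp53, Zmat3 (ENSMUSG00000027663, chr3:32334792-32366014), Trp53inp1 (ENSMUSG00000028211, chr4:11156431-11174379) and Mdm2 (ENSMUSG00000020184, chr10:117688875-117710758) overlap no other annotated gene, and Trp53 lies at chr11:69580359-69591873 (ENSMUSG00000059552).

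Over the 16 glomerular class and library sums, 3 members had at least 10 UMIs in every sum and could be compared with the 3295 genes of which the same was true. The genes most like Mdm2 were Ccnd1 (Pearson r 0.97 of log2(CPM + 1)), Rap1b and Bach1 (both 0.96). Those most like Bax were Csnk1d (0.93), Ubn1 and Pak2 (both 0.92), and Akap12 (0.93) and Hnrnpab (0.92) were among the 3 most like Trp53. The 16 points share 4 libraries and 4 classes, so the values describe the sums only.

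A list of 44 other p53 targets gave the wider pathway. In endothelial cells 8 of the 40 tested rose and 2 fell, where 6.13% of all genes were called in either direction, with a median log2 difference of 0.16 against -0.006 over all genes. Gdf15, a stress-induced cytokine, went from 1.252 and 2.797 to 17.85 and 16.4 CPM (log2 3.17, SE 0.30, edgeR adjusted p 1.89e-06). Rps27l (log2 0.74), Ephx1 (log2 0.70), the death receptor Tnfrsf10b (log2 0.73) and the growth-arrest gene Gadd45a (log2 0.65) rose as well. Xpc, which recognises DNA damage for nucleotide excision repair, fell from 27.87 and 28.67 to 16.36 and 19.23 CPM (log2 -0.67, SE 0.16, edgeR adjusted p 0.0172). The 2 dissociation genes that rose in the same sums were Dusp1 (log2 1.17) and Ier3 (log2 0.91).

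In podocytes 5 of 36 other targets rose, where 3.53% of all genes did, and none fell, with a median of -0.01 against 0.004 over all genes. Gadd45a went from 1521 and 1608 to 2531 and 2486 CPM (log2 0.68, SE 0.14, edgeR adjusted p 0.00474). Fas, a death receptor, went from 2.22 and 2.354 to 9.497 and 7.179 CPM (log2 1.88, SE 0.35, adjusted p 0.0015). Sulf2 (log2 0.98) and Apaf1, the core of the apoptosome (log2 0.71), rose too. Pmaip1, which encodes the BH3-only protein Noxa, was the other call, with 2 and 0 UMIs in young and 23 and 19 in aged sums. It passed the count filter through the aged sums alone, so its direction was set by the filter. With mixed clusters kept, the sign of Fas turned and it was not called. Of 18 dissociation genes, 5 rose in podocytes (led by Dnajb1, log2 1.40, and Atf3, log2 0.76) and 1 fell (Dusp1, log2 -0.81).

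In mesangial cells 1 of 36 other targets rose and 3 fell, 4 of 36 in all against the 8.43% of all genes called there, too close to read anything about the targets. Gdf15 (log2 2.05, SE 0.45) rose. Btg2, an antiproliferative gene that is also an immediate early gene, fell from 1289 and 1883 to 629.2 and 809.5 CPM (log2 -1.14, SE 0.20, edgeR adjusted p 0.00474), and Plk2 (log2 -0.86) fell with it. Pmaip1, the other call, had 11 and 6 UMIs against 2 and 4 and passed the filter through the young sums alone. The dissociation genes Egr1 (log2 -1.24), Jun (log2 -0.98) and Atf3 (log2 -0.74) fell in the same sums, and their part was not tested. In parietal epithelial cells, where 5.46% of all genes were called in either direction, 2 of 19 rose and 3 fell. Sfn (log2 2.73, edgeR adjusted p 2e-05) and Gdf15 (log2 1.71, edgeR adjusted p 0.0476) rose. Gdf15 held 4 and 16 UMIs in young and 22 and 102 in aged sums, with 1 young library below the filter's level. It was called in 8 of 15 alternatives, and Sfn in 15 of 15. Those that fell in parietal epithelial cells were Btg2 (log2 -1.11), Gadd45a (log2 -0.77) and Trp53i11, which passed the filter through the young sums alone. There 9 of 17 dissociation genes fell, led by Jun (log2 -1.47), Fos (log2 -1.31) and Ier2 (log2 -1.79).

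**Figure D4:**
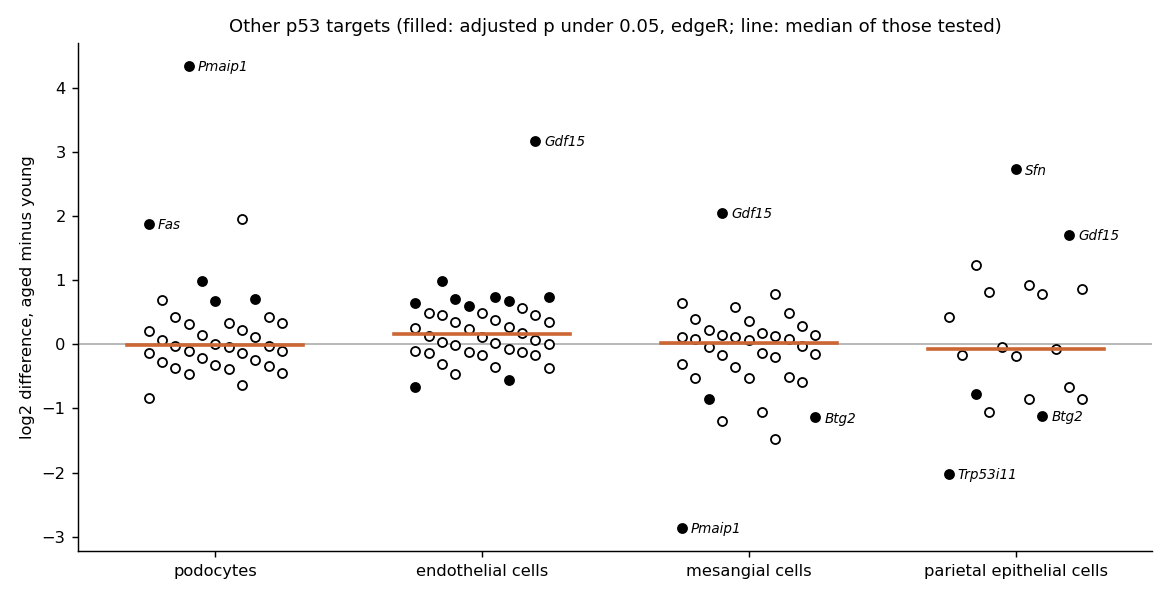
Log2 difference from young to aged of the other p53 targets tested in each class, 1 point a gene, filled where edgeR called it, with the median of those tested as a line and called genes named where the difference reaches 1 in size. From left to right the medians lie at -0.01, 0.16, 0.02 and -0.07.

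Of 22 regulators of p53 listed, 20 were found, and their calls in podocytes and endothelial cells were about as frequent as those over all genes. In podocytes 1 of 16 changed, where 5.28% of all genes did: Sirt1, a deacetylase of p53, fell from 50.29 and 55.6 to 34.76 and 34.84 CPM (log2 -0.60, SE 0.14, edgeR adjusted p 0.0144). In endothelial cells 1 of 19 changed, against the 6.13% above: Hipk2, a kinase that phosphorylates p53, fell from 358.1 and 380.2 to 186.9 and 252.3 CPM (log2 -0.75, SE 0.16, adjusted p 0.00708). In mesangial cells 2 of 19 were called, where 8.43% of all genes were. These were Cdkn2a (1 and 2 UMIs against 128 and 162) and the p53 relative Trp63 (3 and 3 against 21 and 66), both of which passed the filter through the aged sums alone. In parietal epithelial cells 1 of 11 rose, where 2.58% of all genes did: Usp10, a deubiquitinase of p53 (log2 1.31, SE 0.35, edgeR adjusted p 0.0377). Usp10 held 9 and 9 UMIs in young and 27 and 55 in aged sums, with 1 young library below the filter's level. It was called in 8 of 15 alternatives. Of 20 cell cycle genes that p53 is known to hold down, edgeR and DESeq2 called none in any class among the 19 tested in endothelial cells, the 6 in mesangial cells, the 2 in podocytes and the 1 in parietal epithelial cells, of which 0, 2, 1 and 0 had an unadjusted p under 0.05.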

How the data were processed

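The deposited matrices held raw counts of UMIs per gene and barcode, made by the authors with Cell Ranger and aligned to GRCm38 per the labels. The protocol text names version 3.1.0 and the submitters' processing notes name 6.0.1, and which one made the counts was not settled. All values were whole numbers and no barcode had under 500 UMIs. Cells were kept with at least 500 genes and at most 20% mitochondrial UMIs. The highest Scrublet scores (scanpy 1.11.5) were removed at 0.8% per 1000 barcodes, 1876 of 29876 barcodes, because the automatic threshold marked 0.449%. Clusters (2000 variable genes, 30 components, 15 neighbours, leidenalg 0.10.2, resolution 1) were named from marker lists at thresholds set after the data were seen, and mixed clusters and cells were left out.

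UMIs were summed per class and library and tested with edgeR 4.0.16 (TMM, default filter, quasi-likelihood) in R 4.3.3, or with DESeq2 1.42.0 as an alternative. An exact permutation test of 2 against 2 libraries cannot go below 0.333 and was not used. Gene positions are from GENCODE vM21, which held 99.6% of the gene IDs. The members, gene lists and tests were chosen with earlier results of these data known. Members are named in every class; of the other lists, up to 6 called targets and up to 3 called genes of each further list, by smallest p. Some results on genes outside the members are not reported here, and 1 gene was dropped from the other targets and their counts; the fits across all genes were left as they were.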

Additional observations from a re-analysis of the deposited data

Results flagged for a closer look

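In 4 comparisons of a member the difference with age was itself different between 2 cell classes by the interaction test of edgeR. The aged minus young difference was larger in endothelial cells than in podocytes by 1.56 (log2) for Bbc3, by 0.82 for Bax and by 0.72 for Ccng1. For Trp53inp1 it was -0.95 for mesangial against endothelial cells. Across the alternatives the Bbc3 value ran from 1.36 to 1.78 and was called in 9 of 13. The Bax value ran from 0.73 to 0.91 and was called in 10 of 14, the Ccng1 value from 0.54 to 0.84 and called in 6 of 14, and the Trp53inp1 value from -1.08 to -0.80 and called in 7 of 14. No sign turned among these.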

How the results depend on the processing

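Most differences of a member within a class kept their sign under the alternatives, though most members turned sign in some class. The calls moved with the libraries and cells used, and the cause was not tested. Genes called in the 4 classes (podocytes, endothelial, mesangial, then parietal epithelial cells) numbered 574, 806, 930 and 284, and with DESeq2 261, 509, 551 and 97. Without the filter on low counts they numbered 0 in endothelial cells (2267 genes had an unadjusted p under 0.05), 1479 in mesangial and 449 in parietal epithelial cells. With clusters at resolution 2 there were 274 in podocytes. With predicted doublets kept there were 169 in podocytes and 165 in parietal epithelial cells, with mixed clusters and cells kept 26 and 6, and with cells named one by one 278 and 136. Leaving out 1 library gave 296 to 1223, 0 to 749, 71 to 1959 and 284 to 361 in these classes.

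Members called in the 4 classes, in the same order, numbered 1, 5, 0 and 1. In podocytes there were 2 with RLE size factors, with thinned sums and with at most 10% mitochondrial UMIs, and 0 with doublets or mixed clusters and cells kept. In endothelial cells there were 0 without the filter, and the clusters gave 3, 2, 1, 0, 2 and 2. In mesangial cells there was 1 without the filter. In parietal epithelial cells there were 2 without the filter, and 0 with DESeq2, with doublets or mixed cells kept and with cells named one by one. Leaving out 1 library gave 1 to 2, 0 to 4, 0 to 2 and 1 to 2 in these classes.

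The labels do not say what a replicate number marks. Deviations of same-numbered sums correlated at 0.0143, 0.0722, 0.039 and -0.0351 in the 4 classes. With 2 libraries a group this cannot show whether the numbers pair libraries. With the replicate block 1300 genes were called in endothelial cells and 2 members in parietal epithelial cells.

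For the difference in age effect, 581 genes were called between podocytes and endothelial cells, 501 between podocytes and mesangial cells and 524 between endothelial and mesangial cells. For the first pair DESeq2 called 192, no filter gave 952, and resolution 2, doublets kept, mixed cells kept and cells named one by one each gave 0 (1712, 1664, 1358 and 1543 genes at an unadjusted p under 0.05). For the second pair these settings gave 127, 816, 6, 4, 0 and 1. For the third pair DESeq2 gave 195, doublets kept 301 and cells named one by one 275. Leaving out 1 library gave 302 to 465, 302 to 831 and 281 to 787. Members called in the first pair numbered 3, with 1 by DESeq2, 5 without the filter and 0 under the 4 settings on cells. In the second they numbered 0, with 1 without the filter and 1 with at most 10% mitochondrial UMIs. In the third they numbered 1, with 0 by DESeq2, with thinned sums and with doublets or mixed cells kept. Leaving out 1 library gave 2 to 4, 0 to 1 and 0 to 1.

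Signs turned in these cases, none of them called. With mixed clusters and cells kept the log2 difference was -0.01 for Mdm2 and -1.10 for Fas in podocytes, 0.15 for Zmat3 and -0.17 for Bbc3 in mesangial cells, and 0.02 for Mdm2 and 0.35 for Ccng1 in parietal epithelial cells. Aen in podocytes was at 0.10 with thinned sums, at 0.01 with at most 10% mitochondrial UMIs, and ran from -0.07 to 0.04 with 1 library left out (0.02 without aged 2). In parietal epithelial cells Mdm2 was at 0.05 without the filter, and Ccng1 at 0.10 with doublets kept. Within endothelial clusters, Trp53 was at -0.18, -0.10 and -0.03, Mdm2 at -0.18, Bbc3 at -0.15, Trp53inp1 at -0.30 and Aen at -0.53. Leaving out 1 library gave Zmat3 in podocytes -0.30 to 0.59, Trp53 in endothelial cells -0.002 to 0.20, Trp53inp1 there -0.03 to 0.79, Zmat3 in mesangial cells -0.28 to 0.12 and Bbc3 there -0.11 to 0.46. In parietal epithelial cells it gave Trp53 -0.01 to 0.59, Mdm2 -0.41 to 0.21 (0.20 without aged 1) and Ccng1 -0.70 to 0.06.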
